A study of Homo sapiens with 12 samples.

Results

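MEL1 is an established human embryonic stem cell line, and the 4 MEL1 libraries of the series (4 of 12) were set against each other here. They were chosen by their labels: 2 libraries of a line carrying hairpin KD1 against METTL14, 1 of a line carrying hairpin KD2, and 1 of a line carrying the control hairpin SCR. All of these lines held a doxycycline-inducible lentiviral short hairpin RNA and were selected with puromycin, and all were grown as embryoid bodies, the aggregates in which pluripotent cells start to differentiate. Aggregates were seeded at 500 cells per microwell and kept for 10 days in embryoid body medium with doxycycline at 2 µg/ml, the SCR line included. Total RNA was then sequenced with a stranded kit. The series also holds 8 libraries of the line H1, treated alike, with 2 each of SCR, KD1, KD2 and KD3. The 6 with SCR, KD1 or KD2 served below as libraries whose values the 2-fold rule in MEL1 did not use. Gene lists, in contrast, were chosen with earlier results of these data known. MEL1 has 1 SCR library and no replicate control, so its fold changes are described rather than tested, and every MEL1 ratio below shares that library. Nothing in the labels says whether the libraries of a group came from separate cultures, so the spread between them may be technical. Each line carried 1 vector, no clone was stated, and doxycycline and puromycin are common to SCR and knockdown.

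METTL14 is the RNA-binding partner of METTL3, and together they form the core of the writer complex that places N6-methyladenosine (m6A) on RNA. WTAP, VIRMA, ZC3H13, RBM15 and CBLL1 direct that core to its substrates, FTO and ALKBH5 remove the mark, and YTH-domain, IGF2BP and HNRNP proteins bind it or the structures it opens. In pluripotent stem cells the mark is known for shortening the life of transcripts of pluripotency factors during the exit from self-renewal. The mark itself was not measured in these libraries.

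Counts were expressed as CPM, the level relative to the library total after scaling with TMM factors, and each knockdown library was compared with SCR as a log2 ratio after adding 0.5 CPM to both. Ratios were read only for the 10657 of 65969 identifiers with a mean of 10 CPM or more over the 4 libraries. The SCR library held 15963241 estimated counts and the knockdown libraries 39552685 to 43508287, so 10 CPM stood on 148 counts in SCR and on at least 350 elsewhere. The pluripotent cell markers (15 genes) summed to 6800 CPM in SCR, 7110 and 7040 CPM in KD1 and 4030 CPM in KD2, against 1890 to 2220 CPM in the 8 H1 libraries, and all 15 were above 1 CPM. Neuroectoderm markers summed to 991 to 1350 CPM in MEL1, with 5 of 10 at 10 CPM or more. Surface ectoderm markers summed to 1810 to 2270 CPM, with 6 of 11 at 10 CPM or more and 2 under 0.1 CPM. Mesoderm and cardiac muscle markers had no member at 10 CPM, with sums of 10.2 to 31.4 CPM. The labels call the cells human embryonic stem cells. At day 10 these markers describe aggregates that still carried much pluripotency RNA beside RNA of some neuroectoderm and surface ectoderm markers. The sums do not show which cell types were present, since a part of these 2 lists was low and a marker can be shared between cell types. In bulk RNA a smaller share of a cell type and less RNA per cell cannot be told apart.

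The ratios followed the base composition of the transcripts, and this value stands beside every count that follows. Spearman's rho between a gene's log2 ratio and its mean transcript GC content was 0.625 and 0.62 in KD1 and 0.447 in KD2 (10215 genes with a GC value, which share 1 SCR library). In genes of 60% GC or more the median log2 ratio was 0.61, 0.65 and 0.45 in KD1 replicate 1, KD1 replicate 2 and KD2, and in genes under 40% GC it was -0.19, -0.41 and -0.13. A trend with GC content also separated the 2 H1 SCR libraries from each other. Its rho was -0.735 for the log2 ratio of replicate 2 to replicate 1, and the sign depends only on which replicate is the divisor. The part of the GC trend in the gene results was measured by removing a smooth trend on GC content and transcript length from each ratio. Values without the trend are given beside many, but not all, of the results that it moved out of the 2-fold set, across a test's threshold or by over 1.5 times. A gene named without such values is not thereby shown to be free of the trend.

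**Figure D1:**
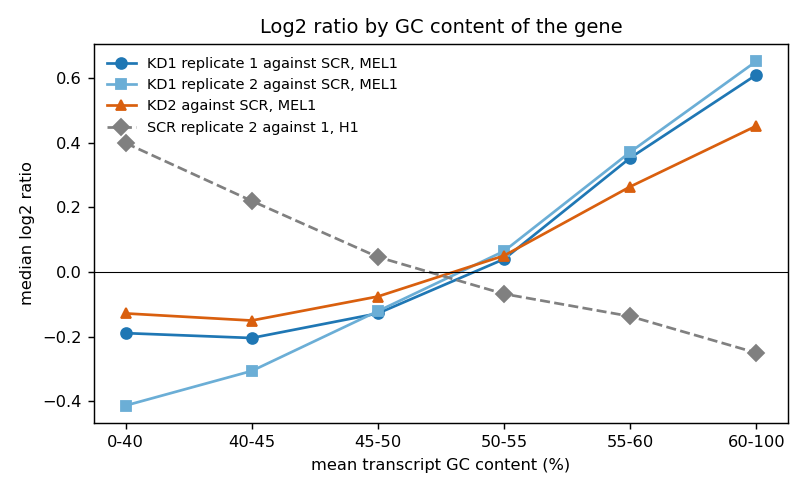
Median log2 ratio (vertical axis) of genes grouped by mean transcript GC content in percent (horizontal axis), for each MEL1 knockdown library against the MEL1 SCR library and, dashed, for H1 SCR replicate 2 against replicate 1. All 3 MEL1 lines climb from below 0 under 40% GC to 0.45 to 0.65 at 60% GC or more, and the dashed line falls from 0.40 to -0.25.

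The targeted gene was lower in every knockdown library. METTL14 (ENSG00000145388, GRCh38 chr4:118685368-118715433, plus strand, protein-coding, coordinates of GENCODE 29) stood at 49.4 CPM in SCR, at 8.02 and 5.92 CPM in KD1 and at 8.95 CPM in KD2. These levels are 16.2%, 12% and 18.1% of the SCR level, with no overlap. The mean log2 ratio of the hairpins was -2.58, and the edgeR model of all 12 libraries, in which the lone SCR and KD2 libraries are assumed to vary like the paired ones, gave an adjusted p of 0.004. In H1 the gene fell by 1.46 ± 0.20 (SE) on the log2 scale with the same hairpins (edgeR adjusted p = 0.00463), from 29.8 and 43.8 CPM with SCR to between 11 and 17.8 CPM.

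Of the other writer genes, WTAP, the splicing-linked adaptor of the core, was the one most unlike SCR. WTAP stood at 155 CPM in SCR, 106 and 114 CPM in KD1 and 95.5 CPM in KD2, a mean log2 ratio of -0.60, so the knockdown levels did not overlap the SCR level. Without the trend its log2 ratios were -0.28, -0.14 and -0.52. In H1 it fell by 0.51 ± 0.09 (SE, log2; edgeR adjusted p = 0.011). METTL3, the catalytic subunit, was at 80.5 CPM in SCR, 84.4 and 84.2 CPM in KD1 and 65.3 CPM in KD2, so the SCR level lay between the hairpins. RBM15B, an RNA-binding adaptor, was higher in all 3 knockdown libraries with 126 CPM in SCR and 141 to 159 CPM elsewhere, and VIRMA, the scaffold subunit, was lower in all 3 with 81.1 CPM in SCR and 60.5 to 75.7 CPM elsewhere. With the GC and length trend removed VIRMA turned to a mean log2 ratio of 0.09, and the ratios of RBM15B were 0.10, 0.18 and 0.05. Of 8 writer genes 3 were lower in all 3 knockdown libraries, 2 were higher and 3 were mixed, shares near those over all 10657 genes, of which 26.2% were lower in all 3 and 33.7% higher.

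**Figure D2:**
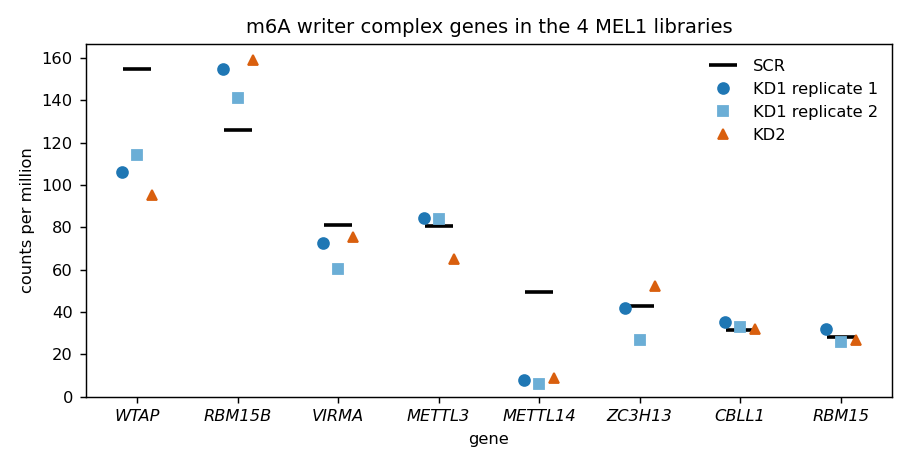
CPM (vertical axis, from 0) of 8 genes of the m6A writer complex in the 4 MEL1 libraries; the bar is SCR and the symbols are the knockdown libraries. METTL14 is at 49.4 CPM with SCR and at 5.92 to 8.95 CPM with the hairpins, WTAP at 155 CPM and 95.5 to 114 CPM, while METTL3 has the SCR bar between the hairpins.

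Genes that bind or erase the mark were mostly lower before the GC and length trend was removed. Of 12 such genes 9 were lower in all 3 knockdown libraries and 1 was higher, against the same 26.2% and 33.7% of all genes. Their median log2 ratio was -0.32 against 0.03 over all genes, and 3 were lower and 1 higher with the GC and length trend removed, when the median was -0.12. IGF2BP1, which shields marked transcripts from decay, was at 717 CPM in SCR, 438 and 375 CPM in KD1 and 570 CPM in KD2. HNRNPA2B1, a nuclear RNA-binding protein, was at 2070 CPM in SCR and 1350 to 1480 CPM in the knockdown libraries, and HNRNPC at 1730 CPM and 1150 to 1540 CPM. HNRNPC was also the 1 gene of these 12 that changed in H1, where it fell by 0.44 ± 0.11 (SE, log2; edgeR adjusted p = 0.0375). Without the trend it did not pass there (edgeR adjusted p = 0.0864), and its MEL1 ratios were mixed in sign at -0.15, 0.03 and -0.38. The ratios of HNRNPA2B1 were then mixed too, at -0.18, 0.02 and -0.50. ALKBH5, an m6A eraser, was the gene that was higher, with 80.1 CPM in SCR, 132 and 153 CPM in KD1 and 130 CPM in KD2. ALKBH5 in H1 had a log2 fold change of 0.70 and did not pass (edgeR adjusted p = 0.0547).

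Over all genes, 3592 (33.7%) were higher than SCR in all 3 knockdown libraries and 2794 (26.2%) were lower, and 4271 were mixed. Which side was larger depended on the scaling: the same counts were 2527 higher and 4004 lower with upper-quartile factors and 3053 higher and 3475 lower with median-of-ratios factors, which moved the median log2 ratio of all genes from 0.03 to -0.11 and -0.04. Differences of at least 2-fold in all 3 libraries were few. They held for 76 genes that were higher (0.713%) and 21 that were lower (0.197%), with 47 and 34 under upper-quartile and 58 and 25 under median-of-ratios scaling. The minimum of 10 CPM is a mean in which the 3 knockdown libraries outweigh SCR, so it favours the higher side. Higher genes could enter with SCR below 10 CPM, as COL3A1 did at 3.91 CPM, while the lower genes had 27.4 CPM or more in SCR. The sizes of the higher and lower sets are therefore not comparable. With the GC and length trend removed 31 were higher (0.291%) and 14 lower (0.131%), of which 28 and 14 were among the first sets. Of the 63 higher genes with a GC value 56 had 55% GC or more, as did 31.6% of all genes, and of the 20 such lower genes 18 were under 50% GC, as were 51.2% of all genes. The edgeR test of MEL1 knockdown against SCR called 730 genes higher (2.93%) and 377 lower (1.51%) of 24898, 4.45% in all, and 4.79% and 2.66% of the genes at 10 CPM or more; it shares its contrast with the choice of the 2-fold genes and is read no further. For a sense of the noise, 42 genes (0.394%) were 2-fold apart between the 2 KD1 libraries in either direction. Between the 2 H1 SCR libraries 69 genes (0.641% of 10763 at 10 CPM or more in H1) were. All of these libraries are deeper than the MEL1 SCR library, whose own spread cannot be measured. Just inside the 2-fold limit lay KIAA2013, ZFYVE19 and FBLN2 on the higher side (smallest log2 ratio 1 to 1.01), and just outside lay SMOC1, KCNN1 and TXNIP (0.995 to 0.997). On the lower side U2AF1, MT-ATP8 and ANP32E lay inside at -1.03 to -1.09 and C1D, EFCAB2 and HSP90AA1 outside at -0.92 to -0.97.

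One short gene was on or off with the hairpin in both lines. MIR196A2 (GRCh38 chr12:53991738-53991847, plus strand, a 110-base microRNA hairpin gene of the HOXC cluster) had no count in MEL1 SCR, 55 and 36.3 CPM in KD1 and 56.2 CPM in KD2, at least 180-fold above the level that 3 counts would give in SCR. The gene had no count in both H1 SCR libraries and both H1 KD3 libraries, 23.3 and 37.5 CPM in H1 KD1 and 19.7 and 16.3 CPM in H1 KD2, at least 211-fold above the floor of 3 counts in SCR. In all, 7 libraries had counts and 5 had none, in step with hairpins KD1 and KD2. It was picked out after its values were seen, outside the rule for named genes, and the cause was not tested. Total RNA counts on the gene do not measure its mature products, which are shown to identify it, as RefSeq gives them for GRCh38.p14, 5′ to 3′ with the seed (bases 2 to 8) in capitals.
hsa-miR-196a-5p: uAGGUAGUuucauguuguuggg
hsa-miR-196a-3p: cGGCAACAagaaacugccugag

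Among protein-coding genes ranked by the smallest of the 3 ratios, the most consistently higher were a transporter, matrix and adaptor genes. SLC16A3 encodes MCT4, the lactate exporter of glycolytic cells, and stood at 21.6 CPM in SCR, 86.9 and 116 CPM in KD1 and 77.7 CPM in KD2. COL3A1, the type III collagen chain, was at 3.91 CPM in SCR, 18.5 and 14.8 CPM in KD1 and 19.0 CPM in KD2. MUSTN1, a small nuclear protein of musculoskeletal tissue, was at 3.84 CPM in SCR, 14.9 and 12.2 CPM in KD1 and 26.3 CPM in KD2. Each of these genes had all knockdown libraries above SCR, with mean log2 ratios of 2.01, 2.05 and 2.16. BCAR1, the adhesion adaptor p130Cas, stood at 11.3 CPM in SCR and 31.4 to 35.4 CPM in the knockdown libraries. ORAI3, a subunit of store-operated calcium channels, stood at 4.86 CPM in SCR and 14.3 to 16.8 CPM in the others, and WFIKKN1, a secreted protein with protease-inhibitor domains, at 4.79 CPM and 14.6 to 17.7 CPM. Beside them came WFDC2, a secreted epithelial protein (11.4 CPM, then 31.7 to 39.9 CPM), SLC25A10, the mitochondrial dicarboxylate carrier (8.77 CPM, then 24.1 to 26.9 CPM), and LRRC61, a leucine-rich repeat protein (6 CPM, then 17 to 18 CPM). Apart from SLC16A3, the SCR values of these genes lie near or below 10 CPM, where the shallow SCR library is less precise. Without the GC and length trend BCAR1 (log2 ratios of 0.91 to 0.96), SLC25A10 (0.81 to 0.97), LRRC61 (0.89 to 1.06), ORAI3 (0.98 to 1.10) and WFIKKN1 (0.88 to 1.12) were no longer 2-fold higher in all 3 libraries. SLC16A3 (1.35 to 1.59), COL3A1 (1.91 to 2.27), MUSTN1 (1.08 to 2.37) and WFDC2 (1.19 to 1.47) still were.

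Some of the top genes share reads with a close relative. EIF3CL had the highest ratios of the protein-coding genes with a symbol, with 15.6 CPM in SCR, 158 and 153 CPM in KD1 and 104 CPM in KD2, but it is a near-identical copy of EIF3C, and estimated counts can move between the copies. EIF3C itself was at 750 CPM in SCR, 660 and 709 CPM in KD1 and 568 CPM in KD2. HPR, a near copy of haptoglobin, was at 3.78 CPM in SCR and 11.1 to 16 CPM in the knockdown libraries, and no H1 library had more than 0.0538 CPM. RN7SL1 and RN7SL2, near-identical genes for the RNA of the signal recognition particle, were at 6.47 and 14.8 CPM in SCR and at 20.3 to 33.5 and 49.0 to 74.6 CPM in the knockdown libraries.

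**Figure D3:**
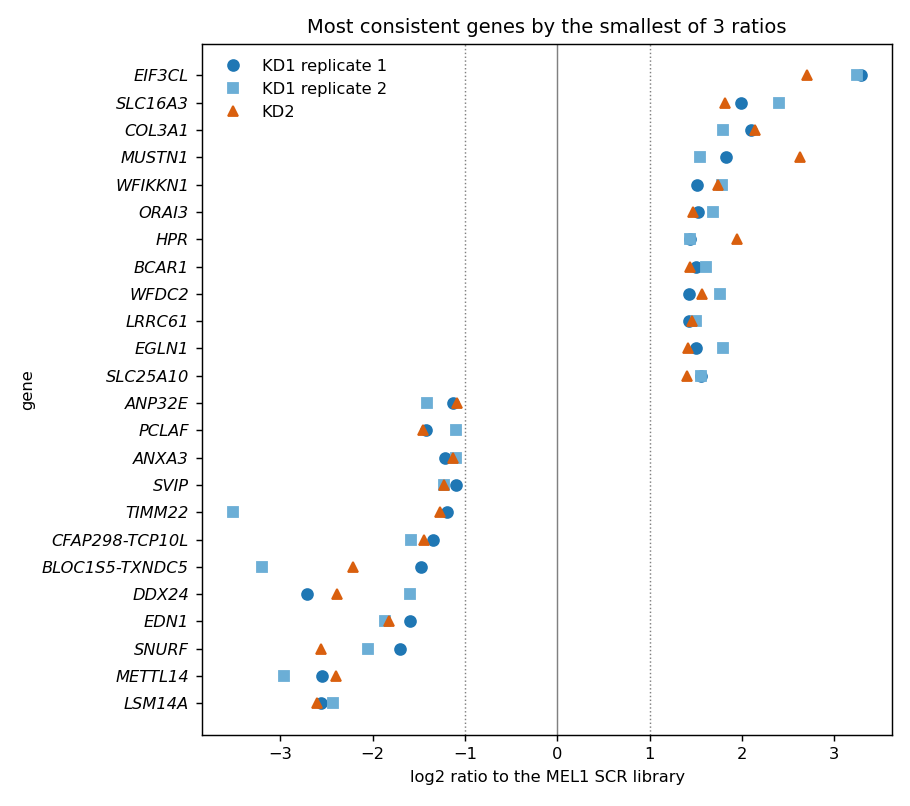
Log2 ratio to the MEL1 SCR library (horizontal axis) in each knockdown library for the 12 higher and 12 lower protein-coding genes whose smallest ratio was largest; dotted lines mark 2-fold. Most genes have their 3 symbols close together, while TIMM22 and BLOC1S5-TXNDC5 spread widely between the KD1 replicates.

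Genes of glycolysis and of the response to low oxygen were higher as a group. When oxygen is scarce the factor HIF is no longer hydroxylated by EGLN proteins and escapes destruction, and its targets raise glucose uptake, glycolysis and lactate export. Of 25 such genes at 10 CPM or more 19 were higher in all 3 MEL1 knockdown libraries and none was lower, against 33.7% and 26.2% of all genes. Their median log2 ratio was 0.70 and 0.88 in KD1 and 0.33 in KD2. With the GC and length trend removed 20 were higher and none lower, against 3321 and 2056 of all 10657 genes, and under upper-quartile and median-of-ratios scaling 17 were higher and none lower. TPI1, triose phosphate isomerase, was at 1340 CPM in SCR, 2390 and 2690 CPM in KD1 and 1660 CPM in KD2. ALDOA, aldolase A, was at 482 CPM in SCR, 943 and 1150 CPM in KD1 and 608 CPM in KD2, and SLC2A1, the glucose transporter GLUT1, at 287, 506, 825 and 686 CPM in that order. PFKL, the liver-type phosphofructokinase, was at 78.8 CPM in SCR and 159 to 161 CPM in the knockdown libraries, but without the trend its log2 ratios were 0.44 to 0.52. VEGFA and ADM, secreted HIF targets, had SCR levels between the hairpins, with 53.7 and 34.0 CPM in SCR and 53 and 16.9 CPM in KD2.

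In H1, 6 of the 25 rose and none fell (3.38% and 9.70% of all genes did), with a median log2 fold change of 1.18. The list was chosen with earlier results of these data known, so H1 may not be independent of that choice. The 6 included HK2 (hexokinase, log2 1.66, edgeR adjusted p = 0.031), PDK1 (a brake on pyruvate oxidation, 1.51, adjusted p = 0.0112), ENO2 (enolase, 1.12, adjusted p = 0.0185) and TPI1 (0.69, adjusted p = 0.0399). Without the trend HK2 did not pass (edgeR adjusted p = 0.0516), though 7 of the 25 did, when 5.38% of all genes rose. The count of 6 varied with the tool and the libraries. It was 20 by DESeq2 (7.05% of all genes rose), 22 with no filter on low counts (7.33%) and 14 without robust fitting (3.14%). With a filter of 1 CPM in 2 libraries it was 10 (4.46%), and with KD3 included 4 (2.65%). Without H1 SCR replicate 1 it was 9, without H1 SCR replicate 2 none of the 25 passed and the median was 0.84, without H1 KD1 replicate 1 or 2 the count was 1 or 2, without H1 KD2 replicate 1 it was 17, and without H1 KD2 replicate 2, either H1 KD3 or either MEL1 KD1 library it was 3. None fell under any of these settings. SLC16A3, which is not one of the 25 and was chosen after its values were seen, was at 33.7 and 6.06 CPM in the 2 SCR libraries, 170 and 140 CPM in H1 KD1 and 42.1 and 95.4 CPM in H1 KD2, and did not pass (edgeR adjusted p = 0.122). H1 and MEL1 effects on SLC16A3 differed by a log2 of -0.35 (adjusted p = 0.947).

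A further 4 genes of this kind were 2-fold higher in MEL1 beside PFKL, and the stretch of 250 bases before their start sites is shown because HIF is known to bind short core motifs there. These genes are SLC16A3, EGLN1 (the main HIF prolyl hydroxylase, itself a HIF target, 10 CPM in SCR, 29.3 and 35.9 CPM in KD1 and 27.6 CPM in KD2), ANKRD37 (an ankyrin-repeat HIF target, 1.15, 9.76, 26.1 and 3.17 CPM in that order) and PFKFB4 (a regulator of glycolytic flux, 16.6, 38.9, 47.1 and 48.9 CPM). They were chosen after their values were seen. ANKRD37 spread most between the knockdown libraries, and it was the gene with the fewest counts in SCR. EGLN1 rose in H1 by 1.19 ± 0.29 (SE, log2; edgeR adjusted p = 0.0412, or 0.123 without the GC and length trend) and PFKFB4 by 1.73 ± 0.39 (SE, log2; edgeR adjusted p = 0.0418). Capitals mark ACGTG or GCGTG on either strand, where a CACGTG counts on both strands. A match stood in 3 of the 4 windows, and 43.2% of 35116 RefSeq promoter windows of that length hold one, so a match here is a description of the letters and not a binding site. The sequences are those of RefSeq for GRCh38.p14, 5′ to 3′ on the strand of the gene, for SLC16A3 chr17:82228185-82228434 (plus strand), EGLN1 chr1:231422288-231422537 (minus strand), ANKRD37 chr4:185396591-185396840 (plus strand), PFKFB4 chr3:48556804-48557053 (minus strand).
SLC16A3: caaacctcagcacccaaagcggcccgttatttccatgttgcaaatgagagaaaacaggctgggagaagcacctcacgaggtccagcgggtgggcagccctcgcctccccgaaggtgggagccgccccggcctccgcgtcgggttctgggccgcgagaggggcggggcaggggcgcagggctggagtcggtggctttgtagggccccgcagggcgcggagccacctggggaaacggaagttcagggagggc
EGLN1: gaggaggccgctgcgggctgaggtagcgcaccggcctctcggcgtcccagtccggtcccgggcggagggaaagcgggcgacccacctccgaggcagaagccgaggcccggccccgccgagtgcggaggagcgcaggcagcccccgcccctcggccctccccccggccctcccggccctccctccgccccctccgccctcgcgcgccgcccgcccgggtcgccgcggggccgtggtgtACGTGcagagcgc
ANKRD37: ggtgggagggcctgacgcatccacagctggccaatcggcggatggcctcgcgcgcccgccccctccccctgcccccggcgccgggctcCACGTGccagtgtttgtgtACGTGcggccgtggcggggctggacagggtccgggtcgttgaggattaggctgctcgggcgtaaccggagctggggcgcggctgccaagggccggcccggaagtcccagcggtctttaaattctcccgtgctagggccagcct
PFKFB4: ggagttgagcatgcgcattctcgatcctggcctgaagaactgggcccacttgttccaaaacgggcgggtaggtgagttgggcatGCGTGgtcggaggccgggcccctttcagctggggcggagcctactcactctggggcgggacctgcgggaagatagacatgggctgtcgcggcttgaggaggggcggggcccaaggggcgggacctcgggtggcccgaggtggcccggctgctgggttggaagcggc

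The most consistently lower genes besides METTL14 were of mixed function. LSM14A, a component of RNA processing bodies, stood at 36.0 CPM in SCR, 5.70 and 6.26 CPM in KD1 and 5.53 CPM in KD2. DDX24, a DEAD-box RNA helicase, was at 44.2 CPM in SCR, 6.34 and 14.4 CPM in KD1 and 8.09 CPM in KD2. In H1 both genes were already low with SCR, at 5.86 and 3.12 CPM for LSM14A and 5.16 and 7.54 CPM for DDX24, and neither passed there (edgeR adjusted p = 0.422 and 0.365). The MEL1 SCR library thus stood above all other libraries of both lines with SCR, KD1 or KD2. EDN1, the vasoconstrictor peptide endothelin-1, was at 32.9 CPM in SCR, 10.6 and 8.72 CPM in KD1 and 8.95 CPM in KD2. PCLAF, a PCNA-binding replication factor, was at 103 CPM in SCR, 38.0 and 47.7 CPM in KD1 and 37.3 CPM in KD2. ANXA3, a membrane-binding annexin, was at 52.1 CPM in SCR and 22 to 24.1 CPM in the knockdown libraries, and ANP32E, a histone H2A.Z chaperone, at 252 CPM and 94.7 to 118 CPM. SVIP, an inhibitor of ER-associated degradation, was at 28.6 CPM in SCR and 11.9 to 13.0 CPM in the others. TIMM22, a mitochondrial import channel, was at 39.8 CPM in SCR, 17.2 and 3.03 CPM in KD1 and 16.2 CPM in KD2, so the KD1 libraries differed widely. Without the GC and length trend PCLAF (log2 ratios of -0.79 to -1.19), ANXA3 (-0.92 to -1), ANP32E (-0.85 to -1.11) and SVIP (-0.81 to -0.96) were no longer 2-fold lower in all 3 libraries. LSM14A, DDX24, EDN1 and TIMM22 still were.

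Several lower entries are hard to assign. SNURF (32.6 CPM in SCR and 5.10 to 9.71 CPM in the others) shares its transcripts with SNRPN, and BLOC1S5-TXNDC5 and CFAP298-TCP10L are read-through transcripts of neighbouring genes. MT-ATP8, which overlaps MT-ATP6 on the mitochondrial genome, was at 1570 CPM in SCR and 586 to 766 CPM in the others. Without the GC and length trend its log2 ratios were -1.14, -0.95 and -0.67, no longer 2-fold in all 3 libraries. The pseudogene RPL39P3 was at 108 CPM in SCR and had no count in the 3 knockdown libraries, at least 1260-fold lower by the level that 3 counts would give in each. It had no count in the 6 H1 libraries with SCR, KD1 or KD2 either.

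The 2-fold genes were then read in H1 with the same hairpins, whose values the choice had not used. The H1 test called 675 genes higher (2.71%) and 1285 lower (5.16%) of 24898, 7.87% in all. Of the 76 higher genes 17 rose in H1 and none fell (22.4% rose, against 3.38% of all genes), and their median H1 log2 fold change was 0.28 against -0.06 over all genes. Of the 21 lower genes 3 fell, METTL14 among them (14.3%, against 9.70% of all genes), and 1 rose. Without METTL14, the target of the hairpins, 2 of 20 fell, a share near that of all genes. The 17 hold 2 identifiers with identical counts. With the GC and length trend removed 14 of the 76 rose and 2 fell, when 5.38% and 11.2% of all genes did. With KD3 included 8 rose and 1 fell, when 2.65% and 9.15% of all genes did. Without H1 SCR replicate 2, 2 of the 76 rose and none of the 21 fell, when 0.103% and 0.403% of all genes did. With H1 KD1 replicate 1, H1 KD1 replicate 2 or H1 KD2 replicate 2 left out fewer of the 76 rose, as did fewer of all genes. The median H1 log2 fold change of the 76 was then 0.30, 0.28 and 0.24 in that order. Over all genes it was -0.04, -0.06 and -0.05.

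DKK3, a secreted protein of the Dickkopf family, had the smallest H1 adjusted p of the protein-coding genes among the 76. Its level was 15.1 CPM in MEL1 SCR, 35.1 and 38.5 CPM in KD1 and 31.6 CPM in KD2. Without the GC and length trend the MEL1 log2 ratios were 0.96, 1.03 and 0.91, so DKK3 was no longer 2-fold higher in all 3 libraries. In H1 it was 14.4 and 15.3 CPM with SCR and 30.4 to 34.8 CPM with KD1 and KD2, a rise of 1.09 ± 0.11 (SE, log2; edgeR adjusted p = 0.00108). The levels of both lines overlapped, and every knockdown level lay above every SCR level. The matrix genes LTBP4, which stores latent TGF-beta, and EFEMP2, which helps assemble elastic fibres, also rose in H1, by 0.64 ± 0.12 and 0.89 ± 0.19 (SE, log2; edgeR adjusted p = 0.0127 and 0.0222). LTBP4 was at 27.3 CPM in MEL1 SCR and 60.1 to 65.4 CPM in the MEL1 knockdown libraries, and EFEMP2 at 4.18 CPM and 11.5 to 13.3 CPM. Without the trend the MEL1 log2 ratios of LTBP4 were 0.57 to 0.74 and those of EFEMP2 0.89 to 1.08, while both still rose in H1 (edgeR adjusted p = 0.0079 and 0.0119). RAB20, a small GTPase of vesicle traffic, rose in H1 by 1.52, LRRC61 by 1.30, DNAL4, a dynein light chain, by 0.63, and SCRN2, a secernin, by 0.53 on the log2 scale (edgeR adjusted p of 0.0141, 0.00962, 0.0164 and 0.0261). Without the trend the MEL1 log2 ratios were 0.90 to 1.26 for RAB20 and 0.51 to 0.82 for SCRN2, while DNAL4 stayed 2-fold higher. On the lower side PCLAF fell in H1 by 0.64 ± 0.15 and ANXA3 by 0.80 ± 0.16 (SE, log2; edgeR adjusted p = 0.0259 and 0.0149). COL3A1, in contrast, was at or under 1.29 CPM in each of these H1 libraries and did not pass (edgeR adjusted p = 0.764).

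**Figure D4:**
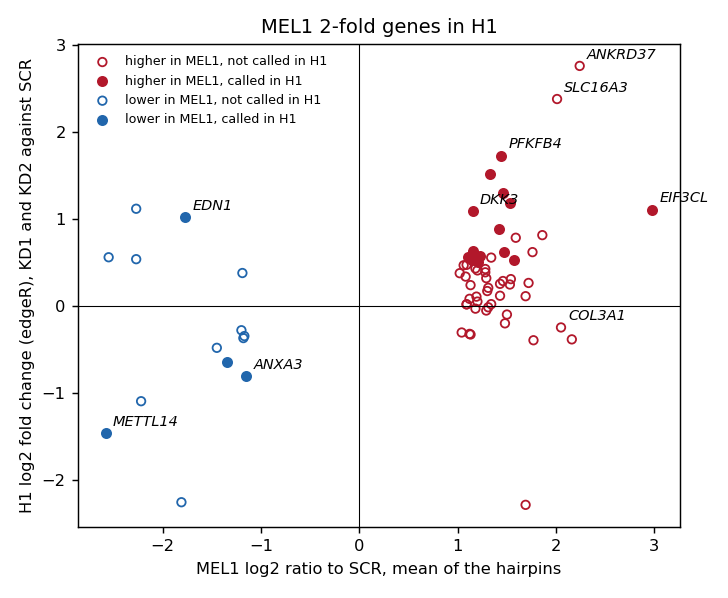
H1 log2 fold change from edgeR (vertical axis) against the mean MEL1 log2 ratio of the hairpins (horizontal axis) for the protein-coding or lncRNA genes with a symbol that were 2-fold higher (58) or lower (14) in all 3 MEL1 libraries; filled symbols passed in H1. Of the filled symbols on the higher side all 14 lie above 0, and EDN1 is the filled symbol on the lower side that lies above 0.

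Genes of DNA replication were mostly lower in both lines. Of 22 such genes 15 were lower in all 3 MEL1 knockdown libraries and 2 were higher, with a median log2 ratio of -0.25, against 26.2% lower and 33.7% higher of all genes. Without the GC and length trend 11 were lower and none higher, against 2056 and 3321 of all 10657 genes. RRM2, a subunit of the enzyme that makes deoxyribonucleotides, was at 155 CPM in SCR, 85.0 and 95.3 CPM in KD1 and 101 CPM in KD2. MCM6, a subunit of the replicative helicase, was at 227 CPM in SCR, 164 and 179 CPM in KD1 and 142 CPM in KD2, and CDC6, its loading factor, at 179 CPM and 124 to 133 CPM. In H1 13 of the 22 fell and none rose, against 9.70% and 3.38% of all genes, where RRM2 had a log2 fold change of -0.85 (edgeR adjusted p = 0.00296). Without H1 SCR replicate 2 fewer of the 22 fell, as did fewer of all genes. The median H1 log2 fold change of the 22 was then -0.39, against -0.47 with all libraries. Mitotic genes were mixed in MEL1, with 9 of 21 lower and 1 higher, and TOP2A had 429 CPM in SCR, 423 and 284 CPM in KD1 and 556 CPM in KD2.

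Chaperones and mitochondrial genes were lower in part. HSP90AA1, the stress-inducible HSP90, was at 3890 CPM in SCR, 2030 and 2050 CPM in KD1 and 1600 CPM in KD2, just short of 2-fold in both KD1 libraries. In H1 it fell by 0.58 ± 0.16 (SE, log2; edgeR adjusted p = 0.0466, or 0.0558 without the GC and length trend). HSPE1, the mitochondrial co-chaperone, was at 420 CPM in SCR and 176 to 297 CPM in the others, and fell in H1 by 0.78 (log2; edgeR adjusted p = 0.00606). Of 11 heat shock genes 6 were lower in all 3 and 2 higher, where 26.2% of all genes were lower and 33.7% higher. Of the 13 mitochondrially encoded genes 10 were lower in all 3 and none higher, and 5 were lower without the GC and length trend, as were 2056 of all 10657 genes; the mitochondrial share of all counts was 6.79% in SCR, 4.82% and 5.80% in KD1 and 6.47% in KD2. None of the 13 passed in H1.

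Of 25 collagen and matrix genes 12 were higher in all 3 libraries and 2 lower, against 33.7% and 26.2% of all genes. Once the GC and length trend was removed 7 were higher and 2 lower, and the share of higher genes was then near that of all genes (3321 of 10657). COL6A2, a chain of microfibrillar collagen VI, was at 47.3 CPM in SCR, 114 CPM in both KD1 libraries and 117 CPM in KD2, with log2 ratios of 0.62 to 0.80 without the trend. COL1A2, a type I collagen chain, was at 139, 251, 223 and 358 CPM in that order. Against KD1 12 of the 25 rose in KD2 and none fell, when 7.11% and 6.47% of all genes did, with a median log2 difference of 0.59. Without KD1 replicate 2 fewer of the 25 rose, as did fewer of all genes, and the median was 0.50. FBN2, a microfibril protein, was at 178 CPM in SCR, 98.4 and 72.4 CPM in KD1 and 383 CPM in KD2. TNC, the matrix glycoprotein tenascin C, was lower in all 3, at 110 CPM in SCR, 40.7 and 27.2 CPM in KD1 and 98.6 CPM in KD2. Among Wnt pathway genes SFRP1, a secreted Wnt antagonist, was at 624 CPM in SCR, 277 and 367 CPM in KD1 and 296 CPM in KD2. SOX2, a factor of pluripotent and neural progenitor cells, was at 423 CPM in SCR and 233 to 329 CPM in the others. In H1 neither SFRP1 nor SOX2 passed (edgeR adjusted p = 0.698 and 0.0852), and the MEL1 effect on SOX2 was lower than the H1 effect (log2 difference -0.98, edgeR adjusted p = 0.0483).

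The KD2 library differed from both KD1 libraries in MEL1 at many genes, and with 1 KD2 library the hairpin, its line and that library cannot be told apart. For 236 genes (2.21%) KD2 was at least 2-fold above both KD1 libraries and for 150 (1.41%) at least 2-fold below both. In 198 of the first and 105 of the second the SCR level lay between the hairpins, as it did for 2633 (24.7%) of all genes, so a mean over hairpins would hide them. The edgeR test of KD2 against KD1, which does not use the SCR library, called 1199 genes higher and 900 lower in KD2 (4.82% and 3.61% of 24898 tested, 8.43% in all), and 7.11% and 6.47% of genes at 10 CPM or more. KD2 is 1 library, and without KD1 replicate 2 the test called 601 genes in all. The log2 ratio of KD2 to KD1 had a Spearman's rho with GC content of -0.19 and -0.24 for the 2 KD1 libraries (10215 genes).

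Some pluripotency genes were higher than SCR in KD1 and lower in KD2. The median log2 ratios of 13 markers were 0.08 and 0.05 in KD1 and -0.99 in KD2. In all 3 libraries 4 of the 13 were lower, a share near the 26.2% of all genes, and none was higher, against 33.7% of all genes. POU5F1, which encodes OCT4, was at 491 CPM in SCR, 797 and 875 CPM in KD1 and 240 CPM in KD2. NANOG, another core pluripotency factor, was at 44.4, 76.9, 81.6 and 32.7 CPM in that order, and PRDM14, a repressor of differentiation genes in stem cells, at 37.4, 76.7, 69.8 and 24.6 CPM. DNMT3B, the de novo DNA methyltransferase of early embryonic cells, was at 1050 CPM in SCR, 1300 and 1220 CPM in KD1 and 448 CPM in KD2. For these 4 genes, named after their values were seen, KD1 lay above SCR and KD2 below it. TERF1, a telomere-binding protein abundant in stem cells, was at 400 CPM in SCR, 342 and 336 CPM in KD1 and 119 CPM in KD2. Of 13 pluripotent cell markers 7 fell in KD2 against KD1 and none rose, against 6.47% and 7.11% of all genes. The median log2 difference of the 13 was -1.15. Those that fell included POU5F1 by 1.80 ± 0.35 (SE, log2; edgeR adjusted p = 0.0189) and DNMT3B by 1.5 ± 0.17 (SE, log2; edgeR adjusted p = 0.000758). LIN28A, LIN28B and SALL4 were not among them, and LIN28A stayed between 1520 and 1810 CPM in all 4 libraries. Without KD1 replicate 2 fewer of the 13 fell, as did fewer of all genes, and the median log2 difference of the 13 was -1.11. In H1 POU5F1 was at 62.3 and 58.6 CPM with SCR, 25.2 and 24.5 CPM with KD1 and 37.0 and 21.8 CPM with KD2, so both hairpins lay below SCR there, where it fell by 1.16 ± 0.23 (SE, log2; edgeR adjusted p = 0.0201). POU5F1 and NANOG have processed copies elsewhere in the genome, and estimated counts can be shared with them.

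Neural crest and dorsal patterning genes moved the opposite way. The neural crest arises at the border of the neural plate under Wnt and BMP signals and is marked by PAX3, TFAP2A, FOXD3, SNAI2 and ETS1. PAX3 was at 44.4 CPM in SCR, 37.0 and 30.6 CPM in KD1 and 129 CPM in KD2, and TFAP2A at 86.1, 57.4, 45.9 and 160 CPM in that order. FOXD3 was at 16.9 CPM in SCR, 11.7 and 12.2 CPM in KD1 and 47.7 CPM in KD2, and ETS1 at 29.9, 16.8, 13.6 and 59.5 CPM. Of 9 neural crest markers 8 rose in KD2 against KD1 and none fell, against 7.11% and 6.47% of all genes, with a median log2 difference of 1.63. Without KD1 replicate 2 fewer of the 9 rose, as did fewer of all genes, and the median was 1.44. The sum of the 10 marker levels was 439 CPM in SCR, 370 and 317 CPM in KD1 and 882 CPM in KD2, and 279 to 386 CPM in the 8 H1 libraries. Of 7 midbrain, hindbrain and spinal factors 6 rose in KD2 against KD1, as did 7.11% of all genes. These included PAX7 (11.3 CPM in SCR, 4.93 and 3.46 CPM in KD1, 37.8 CPM in KD2) and MSX1 (12.3, 8.48, 9.03 and 35.6 CPM). Of 15 Wnt pathway genes 6 rose in KD2 against KD1 and 1 fell, against 7.11% and 6.47% of all genes. Among the 6, AXIN2, a feedback inhibitor, was at 90.6, 77.3, 61.9 and 188 CPM and SP5, a Wnt-induced repressor, at 20.4, 10.9, 11.9 and 64.5 CPM. In H1 PAX3 was at 98.3 and 84.8 CPM with SCR, 81.6 and 73.9 CPM with KD1 and 57.1 and 58.0 CPM with KD2. There 5 of the 9 neural crest markers fell and none rose, against 9.70% and 3.38% of all genes, with a median log2 fold change of -0.45. Fewer of the 9 fell without either H1 SCR library, either H1 KD1 library or H1 KD2 replicate 2, as did fewer of all genes. Their median log2 fold change in H1 was then between -0.33 and -0.55. Trophoblast markers summed to 112 CPM in MEL1 SCR, 68.8 and 66.7 CPM in KD1 and 157 CPM in KD2, and surface ectoderm markers to 1810 to 2270 CPM; their part in these results was not tested.

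**Figure D5:**
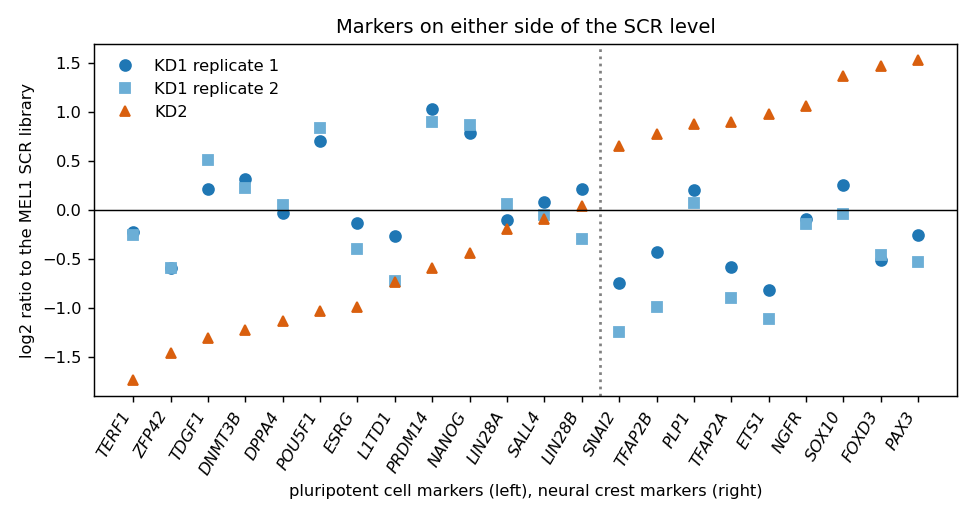
Log2 ratio to the MEL1 SCR library (vertical axis) of 13 pluripotent cell markers and 9 neural crest markers at 10 CPM or more, one symbol per knockdown library. KD2 lies below 0 for most of the first and above 0 for all of the second, while the KD1 replicates stay close to each other; TERF1 is the lowest and PAX3 the highest in KD2.

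Other genes that set the hairpins apart were single genes and large families. RANBP9, a scaffold protein of an E3 ligase complex, was at 50.5 CPM in SCR, 42.2 and 42.7 CPM in KD1 and 347 CPM in KD2, and stood between 53 and 65.6 CPM in H1 libraries with SCR, KD1 or KD2. SGPP2, a sphingosine phosphatase, was at 9.58, 2.71, 2.40 and 28.9 CPM in MEL1, ACP3, a secreted acid phosphatase, at 49.1, 7.23, 5.23 and 67.4 CPM, and DLX3, an ectodermal homeobox factor, at 19.0, 5.95, 5.15 and 44.8 CPM. On the low side of KD2 DIO3, the enzyme that inactivates thyroid hormone, was at 8.30, 32.2, 41.4 and 2.49 CPM, IDO1, which degrades tryptophan, at 30.8, 29.9, 42.2 and 4.41 CPM, and ISG15, an interferon-induced ubiquitin-like protein, at 8.50, 41.6, 61.3 and 9.28 CPM. HSPA1A was at 10.5, 44.3, 52.1 and 9.10 CPM, but its near-identical copy HSPA1B makes its level uncertain. Of 45 ribosomal protein genes 21 fell in KD2 against KD1 and none rose, with a median log2 difference of -0.83. Of 35 oxidative phosphorylation subunits 12 fell and none rose. Over all genes at 10 CPM or more 6.47% fell and 7.11% rose. With the GC and length trend removed these 2 families had 28 and 17 genes that fell, when 10% of all genes did. Without KD1 replicate 2 fewer of both families fell, as did fewer of all genes, and their median log2 differences were -0.64 and -0.43. Without KD1 replicate 1 more of both fell, as did more of all genes, and the medians were -1 and -0.79. RPL13A was at 2920 CPM in SCR, 4070 and 4950 CPM in KD1 and 2520 CPM in KD2.

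The MEL1 effect was last compared with the H1 effect gene by gene in the same edgeR model. The difference passed for 149 of 24898 genes (0.598%), 113 of them higher in MEL1 (0.454%) and 36 lower (0.145%), and for 0.61% and 0.103% of the genes at 10 CPM or more, with 56 and 41 under upper-quartile scaling. For METTL14 itself the difference was -1.20 and did not pass (edgeR adjusted p = 0.122).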

How the data were processed

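Total RNA of 12 libraries was sequenced with a stranded kit, and 4 MEL1 libraries are described here. The deposited table holds estimated counts per gene, which the authors made with fastp and kallisto, per the submitters' processing notes; their versions, the annotation, the build and any strand setting are not given in the sources used here. Between 14.8% and 20.8% of all values per library, zeros included, were not whole, and counts were rounded before testing. Totals were 15963241 in MEL1 SCR and 36609628 to 43508287 elsewhere. Gene names, coordinates, GC content and length came from GENCODE 29 (GRCh38) by identifier, and 95.9% of the 10657 genes described had GC content.

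CPM values used TMM factors over 12 libraries (edgeR 4.0.16, R 4.3.3), and ratios were log2 after adding 0.5 CPM. Genes had a mean of at least 10 CPM over the 4 MEL1 libraries, and the mean ratio weighted both hairpins equally. MEL1 SCR had 1 library, so no test supports a gene chosen on MEL1 ratios. Tests used the robust edgeR quasi-likelihood test on 7 group means over 24898 genes (5 residual degrees of freedom), with Benjamini-Hochberg adjusted p below 0.05; lone libraries were assumed to vary like the others, and p-values measure only the spread between libraries. The H1 contrast used KD1 and KD2. A method check on simulated counts preceded the fits. Alternatives covered scaling, filters, pseudocount, depth, a GC and length trend, DESeq2 1.42.0, and leaving out libraries. Floors take 3 counts in a library and cover counting error only.

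The genes named were METTL14, the 12 highest and 12 lowest genes by the smallest of the 3 ratios, list members by level or 2-fold change, genes that also passed in H1, and the leading genes of the hairpin and line differences; further members and genes were chosen after their values were seen. The members and lists were chosen with earlier results of these data known. One gene that the rule for named genes picks is not reported here.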

Additional observations from a re-analysis of the deposited data

Results flagged for a closer look

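The MEL1 effect differed from the H1 effect of the same hairpins for 149 genes by the interaction test of edgeR (0.598% of 24898), and these are leading genes each way at a mean of 10 CPM or more in MEL1. No cause was tested, and each difference rests on the 1 MEL1 SCR library. NFKBIL1, a gene of the major histocompatibility region, differed by 6.40 (log2, edgeR adjusted p = 0.0174). It was at 4.32 CPM in MEL1 SCR, 16.7 and 14.6 CPM in KD1 and 7.15 CPM in KD2, and at 0.488 CPM or less in these H1 libraries, so its H1 fold rests on few counts. MUSTN1 differed by 2.66 (edgeR adjusted p = 0.0228), and MDGA1, a synaptic adhesion protein, by 2.28 (edgeR adjusted p = 0.0234). MDGA1 was at 4.45 CPM in MEL1 SCR and 10.6 to 20 CPM in the MEL1 knockdown libraries, and at 21.9 and 23.7 CPM in H1 SCR and 15.9 to 21.3 CPM with the H1 hairpins. Without the GC and length trend its MEL1 log2 ratios were 1.45, 0.72 and 1.82.

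LZTS1, a leucine zipper protein of synapses, differed by 1.78 (edgeR adjusted p = 0.0427), a call kept in 6 of 18 alternatives (adjusted p up to 0.109), with 10.7 CPM in MEL1 SCR, 14.5 to 18.5 CPM in the MEL1 knockdown libraries, 18.9 and 19.8 CPM in H1 SCR and 6.73 to 9.53 CPM with the H1 hairpins.

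On the lower side EDN1 differed by -2.85 (edgeR adjusted p = 0.0117), and it rose in H1 from 1.08 and 1.26 CPM to between 1.83 and 3 CPM. ACP3 differed by -2.59 (edgeR adjusted p = 0.0308) and was at 2.31 CPM or less in these H1 libraries. CYP26A1, the retinoic acid hydroxylase, differed by -2.43 (edgeR adjusted p = 0.0483), a call kept in 8 of 18 alternatives (adjusted p up to 0.121), with 38.0 CPM in MEL1 SCR, 20.5 and 34.4 CPM in KD1, 8.05 CPM in KD2, 12.7 and 15.1 CPM in H1 SCR and 21.6 to 41.2 CPM with the H1 hairpins. DENND11 differed by -2.38 (edgeR adjusted p = 0.0143), with 36.2 CPM in MEL1 SCR, 2.48 and 3.86 CPM in KD1 and 24.2 CPM in KD2. The nuclear long noncoding RNA MALAT1 differed by -2.35 (edgeR adjusted p = 0.0308), with 66.3 CPM in MEL1 SCR, 25.4 to 36.4 CPM in the MEL1 knockdown libraries, 33.5 and 42.5 CPM in H1 SCR and 61.9 to 137 CPM with the H1 hairpins.

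The edgeR test of KD2 against KD1 within MEL1 called 2099 genes, which rest on 1 KD2 library.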

How the results depend on the processing

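The 97 genes at 2-fold were 371 at a minimum of 1 CPM, 27 at 30 CPM, 45 with the GC and length trend removed, and 117 to 327 with 1 knockdown library left out. The 6386 genes of 1 direction were 9760 and 3905 at those minimums and 6802 to 9019 with a library left out. The 386 genes with KD2 2-fold from both KD1 libraries were 920 and 183, and 442 to 903. Fewer libraries or a lower minimum relax these rules by construction.

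With edgeR, MEL1 calls (1107) were 2703 with no filter, 2107 by DESeq2, 548 with the trend removed and 507 to 2081 with a library left out. H1 calls (1960) were 3446 with no filter and 104 to 1973 with a library left out. Calls of the line difference (149) were 97 with upper-quartile scaling, 88 with median-of-ratios scaling, 1369 with no filter, 91 at 1 CPM in 2 libraries, 751 by DESeq2, 82 without robust fitting, 380 with the trend removed and 34 to 565 with a library left out. Calls of KD2 against KD1 (2099) were 3753 with no filter and 601 to 2407 with a library left out. The causes were not tested. Leaving out H1 KD1 replicate 1 gave 507, 595 and 34 calls for MEL1, H1 and the line difference, leaving out H1 KD1 replicate 2 gave 591, 706 and 55, and MEL1 calls were 713 or 714 without a MEL1 KD1 library and 2081 without KD2.

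With upper-quartile scaling PDIA4 (-0.0151), ID3 (-0.0301) and CTNNB1 (-0.00135) turned lower on the log2 scale. With the trend removed SREBF2 (-0.017), JUND (-0.311), IER2 (-0.114), ID3 (-0.104) and IFITM3 (-0.00783) turned lower and VIRMA (0.0937) and MT-CO1 (0.00772) higher. The settings for KD2 against both KD1 libraries and the list calls by setting were chosen after seeing the data. No paired analysis was possible because the labels carry no replicate numbers. The depth of the SCR library limits genes near 10 CPM.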
